A study of Mus musculus with 9 samples.

Results

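The semaphorins, plexins, and neuropilins of the mouse were examined in RNA-Seq libraries of osteoblasts and endothelial cells (ECs). They were taken as every protein-coding gene whose symbol is Sema or Plxn followed by a number and a letter, with Nrp1 and Nrp2, and this gave 31 genes out of the 50686 in the deposited count table: 20 semaphorins, 9 plexins, and 2 neuropilins. The rule reads symbols only. The libraries came from untreated MC3T3-E1 cells (control), from MC3T3-E1 cells given 10 μM SB216763 for 14 days, and from untreated mouse pulmonary ECs, which the study obtained by fluorescence-activated cell sorting, with 3 libraries in each of the 3 groups. MC3T3-E1 is a mouse osteoblast line, so both osteoblast groups share a genetic background, and SB216763 blocks the GSK3 kinases, which hold β-catenin low. The time in culture of the control cells and the mouse strain, age, and passage of the ECs are not given in the sources used here. No source says that the libraries of a group came from separate cultures or animals, so the p-values measure only the spread between these libraries, which may be technical.

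Levels are given as CPM, the counts scaled to a common library total by the TMM method of edgeR, and per kilobase (kb) of merged exon where different genes are set side by side. The libraries held 30990107 to 68946333 counts, and 3 counts, taken as the floor, corresponded to 0.0473 to 0.104 CPM, which covers counting error only. The control libraries differed most among themselves, with a chi-square per gene, which grows with depth, of 109.6 between replicates 1 and 2, 51.2 between 1 and 3, and 27.4 between 2 and 3, against 3.20 to 27.3 in SB216763 and 2.93 to 4.73 in EC libraries. Control replicate 2 was the lowest control library for Nrp2 and for 8 of the 9 plexins, so values without it are given beside these genes where they were compared with SB216763. The summed level of 5 endothelial markers (Cdh5, Pecam1, Kdr, Tie1, and Emcn) was 2.0005 to 2.71 CPM in control, 1.98 to 2.55 CPM in SB216763, and 5999.8 to 6149 CPM in EC libraries, and 0 of the 5 passed the test between SB216763 and control. The summed level of 5 osteoblast markers (Sp7, Runx2, Col1a1, Alpl, and Ibsp) was 20086 to 28683 CPM in control, 2824 to 2973 CPM in SB216763, and 28.9 to 38.3 CPM in EC libraries, where Ibsp was at the floor. Col1a1 made up most of this sum, averaging 24511 CPM in control and 2732 CPM in SB216763 libraries. All 5 fell with SB216763, by 0.44 (Runx2) to 6.17 (Alpl) on the log2 scale. Alpl averaged 0.468 CPM in SB216763 libraries, below its 1.71 CPM in EC libraries.

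Semaphorins are secreted or membrane-bound ligands that share a sema domain, and plexins are the transmembrane receptors that bind this domain and act on small GTPases and the cytoskeleton inside the cell. Most secreted semaphorins, those of class 3, cannot bind a plexin alone and need Nrp1 or Nrp2 as the ligand-binding partner, whereas the membrane-bound classes bind plexins directly. The family was found through its repulsion of growing axons, and it is also known in vessels, where Plxnd1 and the neuropilins guide sprouting endothelium and the neuropilins bind VEGF, and in bone, where Sema3a made by osteoblasts protects bone mass and Sema4d acts on osteoblasts through Plxnb1.

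The ligands and receptors of the osteoblasts changed in both directions with SB216763. Sema5a and Sema7a, both low in control cells, were the semaphorins that rose most, by 225-fold and 34.9-fold. The class 3 ligands Sema3a, Sema3c, and Sema3f fell, and Nrp2, the most abundant neuropilin of the control cells, fell 12.3-fold, while Nrp1 and Plxnd1 rose 2.60-fold and 2.62-fold. Of the 31 genes, 27 passed the expression filter, and 3 of these 27 (Plxna4, Sema6b, and Sema6d) passed it only through the EC libraries. With edgeR's quasi-likelihood test and a Benjamini-Hochberg adjusted p under 0.01 as the threshold for a rise or a fall, 9 of the 27 rose in SB216763 against control, 9 fell, and 9 did not pass. Over all genes tested, 32.9% rose and 32.0% fell. These 18 are 66.7% of those tested, and 64.9% of all 15531 genes tested passed the same threshold, so the share near that background is no result about this family. At the cutoff named in the study's methods (adjusted p under 0.01 and a change of at least 4-fold), Sema5a, Sema7a, and Plxnb3 were higher and Nrp2, Sema3f, and Sema3c were lower, which is 22.2% of the 27 against a background of 9.65% (3.81% higher and 5.84% lower). The median log2 fold change was -0.01 over the 27 genes and 0.01 over all genes tested. The libraries of the 2 osteoblast groups did not overlap for 18 of the 27, against 73.2% of all genes tested. In bulk RNA, fewer cells that make a transcript and less of it in each cell cannot be told apart.

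**Figure D1:**
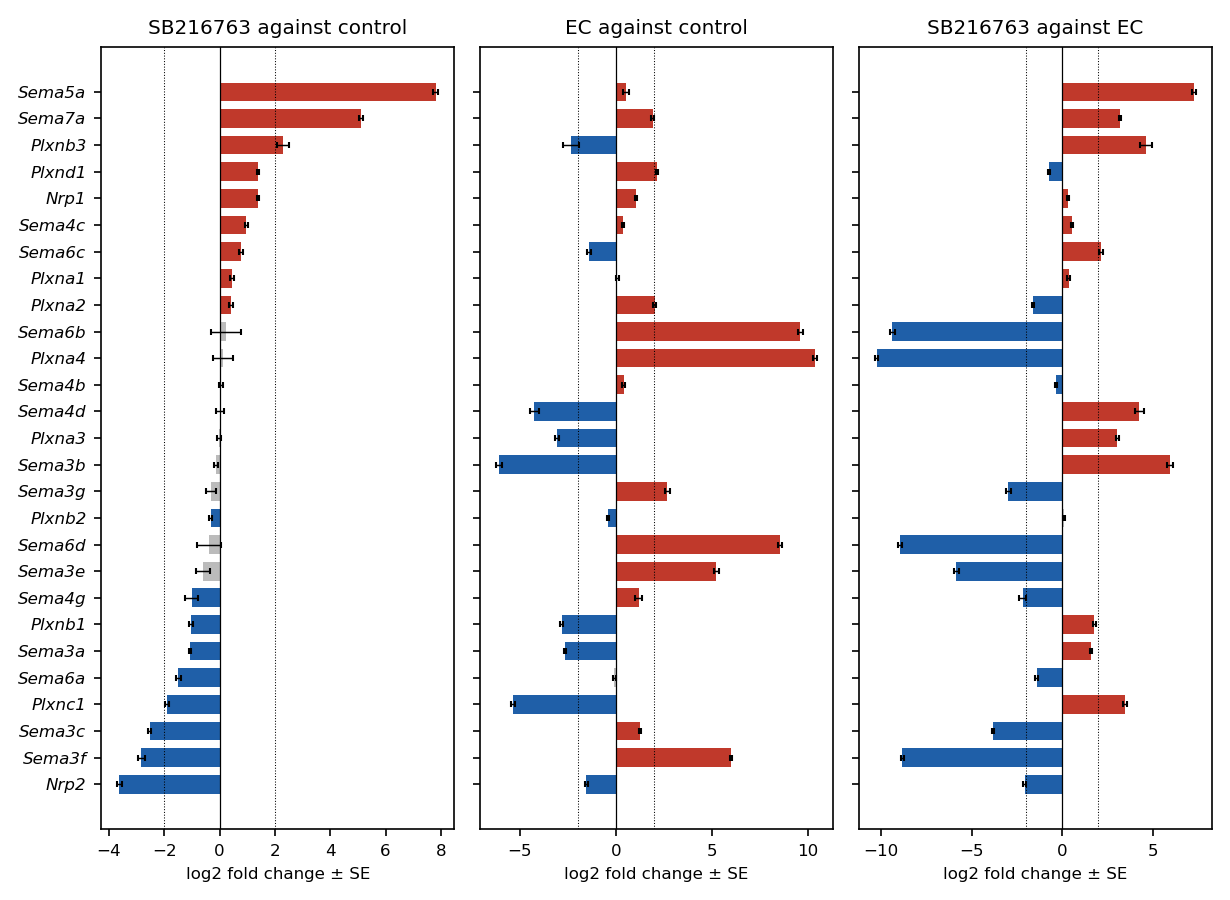
Log2 fold change (x axis, bars, with SE as error bars) of the 27 tested genes (y axis, ordered by the SB216763 against control value) in the 3 comparisons of edgeR's fit, where red bars are higher and blue bars lower at an adjusted p under 0.01, gray bars did not pass, and dotted lines mark 4-fold. Sema5a at 7.81 and Nrp2 at -3.62 stand at the ends of the left panel, and Plxna4 at 10.39 stands highest in the middle one.

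The sequences just upstream of the start sites are shown for the genes that rose most (Sema5a and Sema7a) and for the gene that fell most (Nrp2), since a GSK3 inhibitor stabilizes β-catenin, which acts on promoters through TCF/LEF factors. They are the bases from -250 to -51 relative to the RefSeq start site on GRCm38.p6, 5′ to 3′ on the plus strand, at chr15:32244563-32244762 for Sema5a, chr9:57939862-57940061 for Sema7a, and chr1:62703067-62703266 for Nrp2, and capitals mark a TCF/LEF motif.
Sema5a: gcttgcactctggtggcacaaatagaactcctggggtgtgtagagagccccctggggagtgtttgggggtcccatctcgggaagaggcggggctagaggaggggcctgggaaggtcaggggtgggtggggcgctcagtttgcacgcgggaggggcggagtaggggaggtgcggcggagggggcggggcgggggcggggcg
Sema7a: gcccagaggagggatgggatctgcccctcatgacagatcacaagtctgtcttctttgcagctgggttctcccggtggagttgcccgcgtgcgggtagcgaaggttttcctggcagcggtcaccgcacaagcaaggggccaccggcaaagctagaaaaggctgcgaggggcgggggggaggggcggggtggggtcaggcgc
Nrp2: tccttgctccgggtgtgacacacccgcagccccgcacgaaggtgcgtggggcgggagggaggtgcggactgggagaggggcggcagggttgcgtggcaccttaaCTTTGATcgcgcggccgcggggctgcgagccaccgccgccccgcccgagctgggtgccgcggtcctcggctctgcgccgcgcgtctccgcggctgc
The motif was searched on both strands in windows of 300 bases, from 250 before to 50 after each RefSeq start. Its forms were CTTTGAA and the near form CTTTGAT, together with CTTTGTA and the near form CTTTGTT, and no form overlaps another. It was present in 16.9% of all 32851 windows. The RefSeq table held 26 of the 31 genes, and 6 of their 37 windows (16.2%) had the motif, 1 window for each of 6 genes (Nrp2, Plxnb1, Sema3c, Sema3d, Sema3e, and Sema6d). Nrp2 had CTTTGAT, starting at -146, and these letters were not in the windows of Sema5a or Sema7a. A match of letters is a description and no binding site. The stretches printed were GC-rich, with 70.5% GC for Sema5a, 65.5% for Sema7a, and 75.5% for Nrp2, where the median of all stretches of this length was 51.5% and the upper quartile 60%. Nrp2 held 28 CG dinucleotides in this stretch, Sema5a and Sema7a held 12 each, and the median was 4.

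The secreted class 3 ligands were lower in the treated osteoblasts wherever they changed. Sema3a (chr5:13125414-13602565, GRCm38), the axon repellent that signals through Nrp1 and A-type plexins, was at 312, 297, and 299 CPM in the control libraries, 149, 143, and 144 CPM in the SB216763 libraries, and 48.2, 48.8, and 46.0 CPM in the EC libraries. Every treated library lay below every control library, and the EC libraries were lower still. Sema3a fell 2.09-fold with SB216763 (log2 fold change -1.06 ± 0.0431 SE, edgeR adjusted p = 2.63e-12). Sema3c (chr5:17574281-17730268), which acts through both neuropilins and Plxnd1 and is known from the outflow tract of the heart, was at 67.7, 66.9, and 65.3 CPM in the control libraries, 12.6, 11.5, and 10.46 CPM in the SB216763 libraries, and 159, 167, and 155 CPM in the EC libraries. The order was treated, control, and EC from low to high, with no overlap between any groups. Its fall with SB216763 was 5.79-fold (log2 fold change -2.53 ± 0.0612 SE, edgeR adjusted p = 4.04e-15). Sema3f (chr9:107681500-107710475), the ligand best known for binding Nrp2, was at 3.89, 3.91, and 4.51 CPM in the control libraries, 0.487, 0.600, and 0.599 CPM in the SB216763 libraries, and 256, 254, and 265 CPM in the EC libraries. It was low in both osteoblast groups, lowest in the treated libraries at 17, 23, and 22 counts, and high in ECs. Sema3f was 7.14-fold lower in SB216763 than in control (log2 fold change -2.84 ± 0.122 SE, edgeR adjusted p = 5.09e-12) and 455-fold lower than in EC libraries.

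The other class 3 ligands did not pass the test between the osteoblast groups. Sema3b, a Nrp1 and Nrp2 ligand first known as a gene lost in lung tumors, averaged 17.4 ± 1.17 CPM in control and 16.0 ± 0.512 CPM in SB216763 libraries (SD, n = 3). Its log2 fold change was -0.12 (95% interval -0.29 to 0.05), and its sign turned when libraries were scaled by total alone. It was nearly absent from ECs, at 13, 3, and 14 counts. Sema3e, which binds Plxnd1 without a neuropilin, was at 0.526 ± 0.185 CPM in control and 0.371 ± 0.0880 CPM in treated libraries, and its log2 fold change of -0.60 missed the threshold (edgeR adjusted p = 0.0490). Without control replicate 3, the library with the lowest Sema3e, the value was -0.77 and passed (adjusted p = 0.00802). Sema3g, described mainly in endothelium, averaged 1.28 ± 0.234, 1.01 ± 0.101, and 7.98 ± 0.560 CPM in control, SB216763, and EC libraries. Sema3d had 2 to 11 counts in every library and was not tested.

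Among the class 4 ligands, which are anchored in the membrane and mostly use B-type plexins, Sema4c was the tested member that rose. Sema4c (chr1:36548639-36558349), a Plxnb2 ligand, was at 29.8, 26.4, and 28.9 CPM in the control libraries, 55.4, 53.6, and 56.3 CPM in the SB216763 libraries, and 37.8, 35.0, and 38.4 CPM in the EC libraries. The treated libraries were the highest and the control libraries the lowest, without overlap, and the rise over control was 1.95-fold (log2 fold change 0.96 ± 0.0533 SE, edgeR adjusted p = 1.33e-10). Exons of Sema4c share bases with D430040D24Rik on the opposite strand, and whether the counting used strand is not given in the sources used here. Sema4g, a less studied member, averaged 1.52 ± 0.242 CPM in control, 0.756 ± 0.154 CPM in SB216763, and 3.43 ± 0.782 CPM in EC libraries, a fall of 2.01-fold with treatment at 24 to 34 counts per treated library (log2 fold change -1.005 ± 0.235 SE, edgeR adjusted p = 0.00120). Sema4d, the Plxnb1 ligand that restrains osteoblasts when osteoclasts release it, averaged 2.501 ± 0.365 and 2.46 ± 0.183 CPM in control and treated libraries (log2 fold change 0.00, 95% interval -0.30 to 0.31). ECs held 5, 3, and 7 counts of it, and the control to EC ratio was 19.2 (95% counting interval 11.5 to 34.7). Sema4b averaged 15.2 ± 1.4998 and 15.9 ± 0.712 CPM in the osteoblast groups (log2 fold change 0.06, 95% interval -0.10 to 0.22), which did not pass, except with libraries scaled by total alone. Sema4a and Sema4f had at most 17 counts in a library and were not tested. Summed over libraries, the treated to control ratio of Sema4a was 3.27 (95% counting interval 1.45 to 8.07) and the control to treated ratio of Sema4f 3.86 (95% counting interval 1.59 to 11.3), and for both genes the libraries of the groups did not overlap.

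Sema5a, of the class that carries thrombospondin repeats beside the sema domain, showed the largest change of the family. Sema5a (chr15:32244810-32696341), which signals through Plxnb3 and Plxna1 and is known to act on both axons and endothelial cells, was at 1.37, 1.13, and 1.42 CPM in the control libraries, 294, 284, and 296 CPM in the SB216763 libraries, and 1.42, 2.35, and 1.88 CPM in the EC libraries. The treated libraries stood apart, while the control and EC libraries overlapped at low levels of 41 to 87 counts. The rise with SB216763 was 225-fold (log2 fold change 7.81 ± 0.0980 SE, edgeR adjusted p = 8.86e-18), and the treated libraries were 158-fold above ECs. EC against control differed by 0.51 on the log2 scale (edgeR adjusted p = 0.00639), and this call was lost in other fits, with limma-voom (adjusted p = 0.0292), with the replicate number as a block (adjusted p = 0.01005), and with these 2 groups fitted alone (adjusted p = 0.0316). It was also lost without control replicate 1 (adjusted p = 0.0102), control replicate 2 (0.0348), EC replicate 2 (0.0421), or EC replicate 3 (0.0220), where the log2 difference ran from 0.34 to 0.57. Its relative Sema5b had 1 count in all 9 libraries together, in control replicate 1, and was not tested.

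The class 6 ligands, which are membrane-bound partners of A-type plexins, differed from one another in pattern. Sema6a (chromosome 18), a Plxna2 and Plxna4 ligand, was at 13.4, 10.9, and 13.0 CPM in the control libraries, 3.98, 4.27, and 4.87 CPM in the SB216763 libraries, and 11.5, 11.9, and 11.5 CPM in the EC libraries. The treated libraries lay below all others, and the control and EC libraries overlapped. Its fall was 2.83-fold against control (log2 fold change -1.50 ± 0.0965 SE, edgeR adjusted p = 8.43e-10). Sema6c, whose receptor is less well defined, was at 6.58, 7.03, and 6.49 CPM in the control libraries, 11.0, 11.3, and 12.01 CPM in the SB216763 libraries, and 2.45, 3.08, and 2.27 CPM in the EC libraries. It was highest in treated and lowest in EC libraries, and rose 1.70-fold against control (log2 fold change 0.77 ± 0.0842 SE, edgeR adjusted p = 5.46e-07). Sema6b and Sema6d were EC transcripts here. Sema6b averaged 92.6 ± 4.16 CPM in ECs and had 1 to 10 counts in each osteoblast library, with an EC to control ratio of 805 (95% counting interval 503 to 1383). Sema6d averaged 42.2 ± 1.59 CPM in ECs and had 2 to 7 counts in each osteoblast library, with an EC to control ratio of 389 (95% counting interval 239 to 681). A change of either between the osteoblast groups was not detectable at this depth.

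Sema7a (chr9:57940112-57962865), which is held at the membrane by a lipid anchor and binds Plxnc1 and β1 integrins, was at 4.68, 5.13, and 4.65 CPM in the control libraries, 173, 178, and 155 CPM in the SB216763 libraries, and 17.9, 17.9, and 18.9 CPM in the EC libraries. The groups did not overlap, with the treated libraries highest and the ECs between them and the control libraries. Sema7a rose 34.9-fold with SB216763 (log2 fold change 5.12 ± 0.0685 SE, edgeR adjusted p = 1.24e-17), and the treated libraries were 9.24-fold above ECs.

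**Figure D2:**
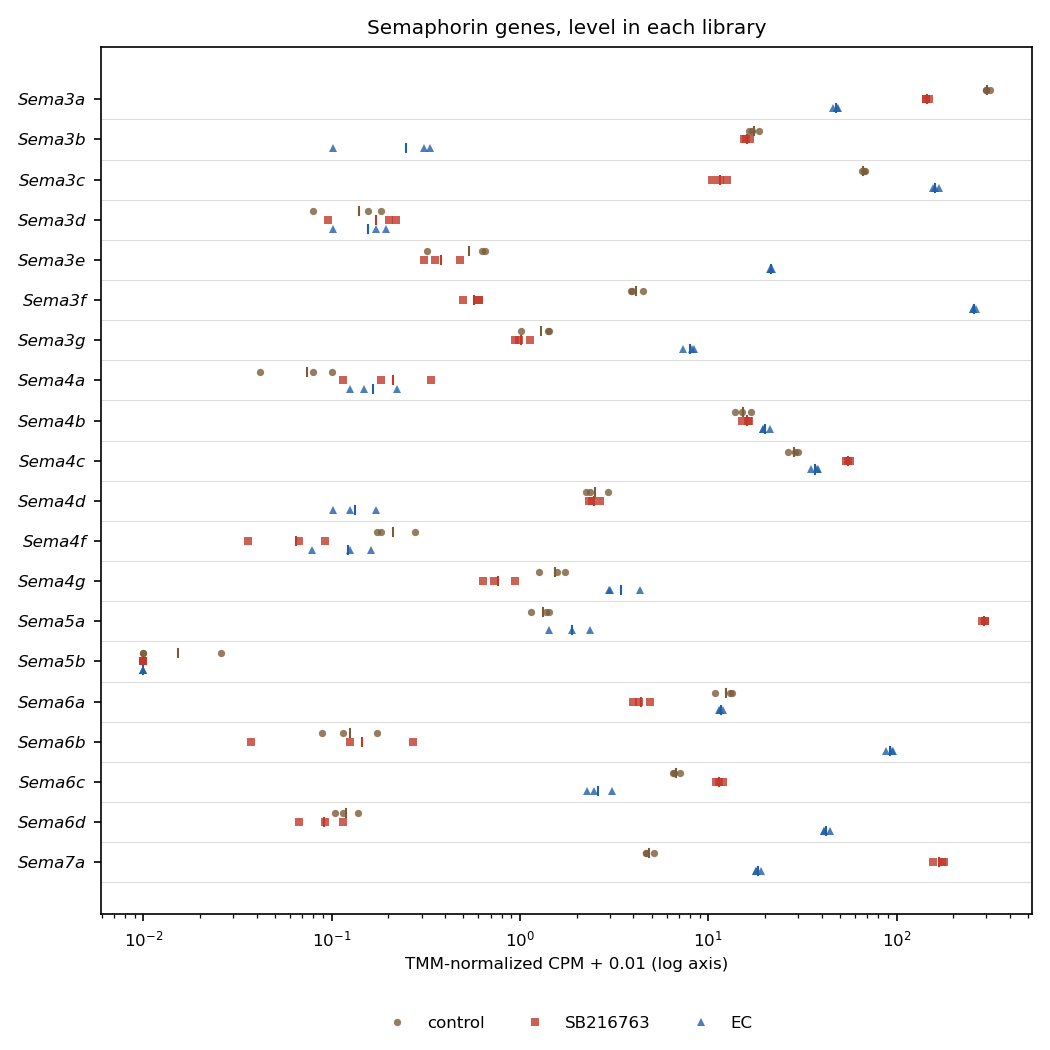
Level of the 20 semaphorins in each library as TMM-normalized CPM plus 0.01 (x axis, log scale), with circles for control, squares for SB216763, triangles for EC libraries, and a vertical tick at each group's mean. The squares of Sema5a (284 to 296 CPM) and Sema7a (155 to 178 CPM) lie far right of the circles, and the triangles of Sema3f, Sema6b, and Sema6d lie far right of both osteoblast groups.

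Per kb of exon, the leading semaphorin differed in each group. Sema3a took 44.1% ± 0.341 of the summed semaphorin level in control libraries (SD, n = 3), followed by Sema3c at 18.9% ± 0.519 and Sema4c at 12.5% ± 0.463. In SB216763 libraries Sema7a took 51.0% ± 2.09, Sema5a 15.6% ± 0.756, Sema4c 11.97% ± 0.633, and Sema3a 10.4% ± 0.334. In EC libraries Sema3f took 39.2% ± 0.497, Sema6b 18.4% ± 0.635, and Sema3c 17.8% ± 0.912, with Sema7a at 4.37% ± 0.0975. Without length correction, the share of Sema7a in the treated cells was 23.3% and Sema5a led. The summed level of all semaphorins was 49.5 ± 1.53 CPM per kb in control, 100.3 ± 3.11 in SB216763, and 127 ± 1.60 in EC libraries, so the treated cells carried more semaphorin transcript than the control cells in each of the 3 libraries.

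**Figure D3:**
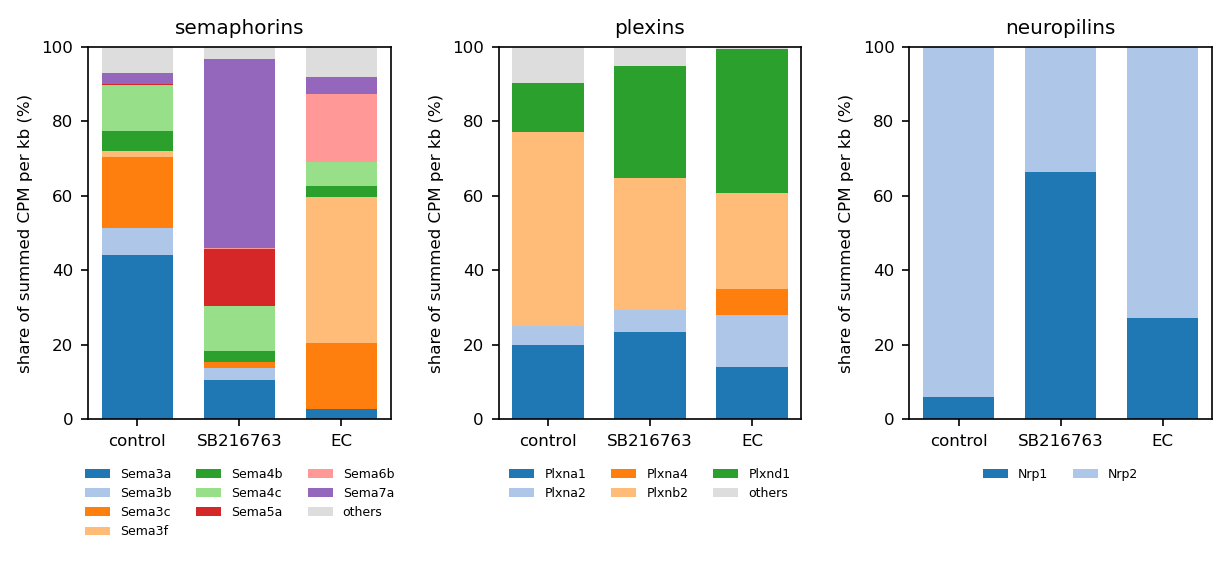
Mean share (y axis, percent) of the summed CPM per kb of the semaphorins, plexins, and neuropilins taken by each gene in control, SB216763, and EC libraries (bars, n = 3 each), where genes under 5% in every group are pooled as others. Sema3a leads the control bar at 44.1%, Sema7a the SB216763 bar at 51.0%, and Sema3f the EC bar at 39.2%, and the neuropilin bar turns from 94.1% Nrp2 in control to 66.3% Nrp1 in SB216763.

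The neuropilins moved in opposite directions. Nrp2 (chr1:62703285-62818695), the partner of Sema3c and Sema3f and, in lymphatic vessels, of VEGF-C, was at 1454, 1097, and 1356 CPM in the control libraries, 102, 106, and 109 CPM in the SB216763 libraries, and 441, 443, and 442 CPM in the EC libraries. Every control library was far above every other library, the treated libraries were the lowest, and the ECs lay between. Nrp2 fell 12.3-fold with SB216763 (log2 fold change -3.62 ± 0.0859 SE, edgeR adjusted p = 3.25e-15), and the log2 fold change was -3.74 without control replicate 2. Nrp1 (chr8:128358604-128503363), the partner of Sema3a and VEGF-A, was at 66.6, 66.3, and 65.5 CPM in the control libraries, 173, 179, and 165 CPM in the SB216763 libraries, and 134, 138, and 139.8 CPM in the EC libraries. Control libraries were the lowest and treated libraries the highest, without overlap. Nrp1 rose 2.60-fold (log2 fold change 1.38 ± 0.0443 SE, edgeR adjusted p = 1.32e-13) and was 1.26-fold higher in treated libraries than in ECs. The ratio of Nrp2 to Nrp1 per kb was 18.05, 13.7, and 17.1 in the control libraries, 0.489, 0.490, and 0.546 in the SB216763 libraries, and 2.72, 2.66, and 2.61 in the EC libraries. Nrp2 was therefore in excess in control cells and ECs and Nrp1 in the treated cells, in each of the 3 libraries of each group. The summed neuropilin level fell from 117 ± 15.5 CPM per kb in control to 26.5 ± 0.625 in SB216763 libraries, and was 51.3 ± 0.379 in EC libraries. A lymphatic marker list, of interest because Nrp2 marks lymphatic vessels, summed to 90.8 to 102 CPM in control, 91.7 to 102 CPM in SB216763, and 248 to 264 CPM in EC libraries, mostly Pdpn in the osteoblasts and Flt4 and Lyve1 in ECs, with Prox1 and Ccl21a of its 5 genes at the floor in every group, and its part in the EC level of Nrp2 was not tested.

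Plxnd1, the receptor of Sema3e and of neuropilin-bound Sema3c, rose most among the abundant plexins. Plxnd1 (chr6:115954811-115995005) was at 142, 129, and 143 CPM in the control libraries, 355, 367, and 362 CPM in the SB216763 libraries, and 588, 588, and 618 CPM in the EC libraries. The treated libraries lay between the control and EC libraries, and no groups overlapped. The rise over control was 2.62-fold (log2 fold change 1.39 ± 0.0509 SE, edgeR adjusted p = 7.26e-13, 1.33 without control replicate 2), and the treated cells remained 1.65-fold below ECs.

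The A-type plexins, the signaling partners of the neuropilins, changed less between the osteoblast groups. Plxna1 was at 275, 213, and 280.4 CPM in the control libraries, 344, 351, and 351 CPM in the SB216763 libraries, and 260.1, 268, and 282 CPM in the EC libraries. Treated libraries were above all others, and the EC libraries overlapped the control libraries. Plxna1 rose 1.36-fold (log2 fold change 0.45 ± 0.0791 SE, edgeR adjusted p = 1.01e-04), and the log2 fold change was 0.32 without control replicate 2. Plxna2, the main Sema6a receptor, was at 137, 105, and 134 CPM in the control libraries, 160.1, 165, and 175 CPM in the SB216763 libraries, and 486, 511, and 529 CPM in the EC libraries. The groups rose from control to treated to EC without overlap, and the treated libraries were 1.33-fold above control (log2 fold change 0.41 ± 0.0793 SE, edgeR adjusted p = 2.12e-04, 0.29 without control replicate 2). Plxna3, the partner of Nrp2 in Sema3f signaling, averaged 42.0 ± 4.13 CPM in control, 41.6 ± 3.58 CPM in SB216763, and 5.003 ± 0.192 CPM in EC libraries, and its log2 fold change with SB216763 was -0.01 (95% interval -0.17 to 0.14, and -0.10 without control replicate 2). Plxna4, known mainly from neurons, averaged 204 ± 11.8 CPM in ECs and had 5 to 11 counts in each osteoblast library. Exons of Plxna1 and Plxna4 overlap antisense genes, and the strand setting of the counting is not given in the sources used here.

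The B-type plexins and Plxnc1, which bind the membrane-anchored ligands without neuropilins, mostly fell. Plxnb2 was at 601, 509, and 597 CPM in the control libraries, 444, 457, and 462 CPM in the SB216763 libraries, and 417, 415, and 440.2 CPM in the EC libraries. Control libraries were the highest, with the treated and EC libraries close together. Plxnb2 was 1.25-fold lower in treated than in control libraries (log2 fold change -0.33 ± 0.0606 SE, edgeR adjusted p = 1.59e-04, -0.41 without control replicate 2), a call that was lost when libraries were scaled by total alone (log2 fold change -0.12, adjusted p = 0.0714). Plxnb1, the Sema4d receptor, was at 31.6, 27.8, and 33.6 CPM in the control libraries, 14.9, 15.1, and 14.9 CPM in the SB216763 libraries, and 4.72, 4.42, and 3.98 CPM in the EC libraries. The order from high to low was control, treated, and EC, without overlap, and the fall with SB216763 was 2.06-fold (log2 fold change -1.04 ± 0.0719 SE, edgeR adjusted p = 1.97e-09, -1.12 without control replicate 2). Plxnb1 exons overlap the antisense gene Gm7628, so reads of the pair may not be separated. Plxnb3 (chrX:73757090-73772514), the Sema5a receptor, was at 0.331, 0.382, and 0.347 CPM in the control libraries, 1.75, 1.88, and 1.61 CPM in the SB216763 libraries, and 0.0229, 0.0609, and 0.116 CPM in the EC libraries. These are 21, 21, and 10 counts in control, 61, 72, and 59 in treated, and 1, 2, and 5 in EC libraries, so Plxnb3 was a rare transcript even where it was highest. It rose 4.90-fold with SB216763 (log2 fold change 2.29 ± 0.228 SE, edgeR adjusted p = 1.68e-07), and the treated to EC ratio was 26.1 (95% counting interval 13.0 to 61.4). Plxnc1 (chr10:94790866-94944835), the Sema7a receptor, was at 43.0, 38.6, and 43.0 CPM in the control libraries, 11.8, 10.7, and 10.8 CPM in the SB216763 libraries, and 0.779, 1.25, and 1.02 CPM in the EC libraries. The groups fell in the order control, treated, EC with wide gaps, and the change with SB216763 was a fall of 3.75-fold (log2 fold change -1.91 ± 0.0739 SE, edgeR adjusted p = 1.46e-12, -1.97 without control replicate 2).

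Per kb, Plxnb2 was the leading plexin of both osteoblast groups, with 52.0% ± 0.490 of the summed plexin level in control and 35.7% ± 0.154 in SB216763 libraries. Plxnd1 took 13.4% ± 0.610 in control, 30.0% ± 0.346 in SB216763, and 38.7% ± 0.313 in EC libraries, where it led. The summed plexin level was 142 ± 14.1 CPM per kb in control, 165 ± 2.81 in SB216763, and 212 ± 7.19 in EC libraries.

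**Figure D4:**
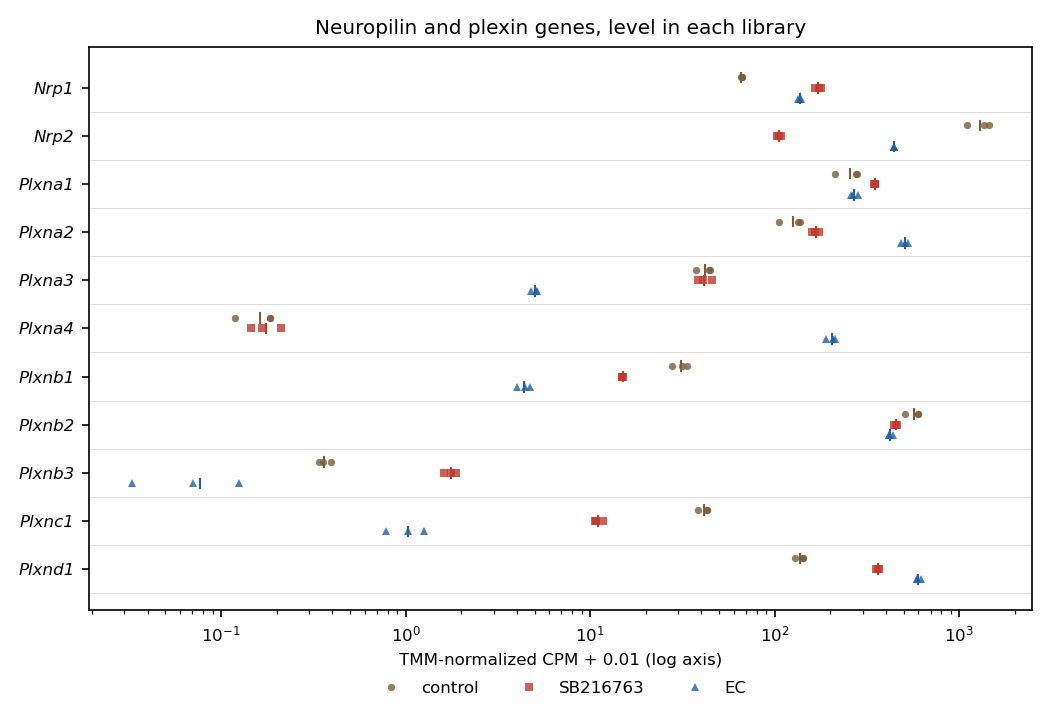
Level of the 2 neuropilins and 9 plexins in each library as TMM-normalized CPM plus 0.01 (x axis, log scale), with circles for control, squares for SB216763, triangles for EC libraries, and a vertical tick at each group's mean. Nrp2 runs from 1097 CPM or more in control to 109 CPM or less in SB216763 libraries, Plxnd1 stands between the other groups in the treated cells, and Plxnb3 and Plxnc1 are lowest in ECs.

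The ligands were then paired with their receptors. The list held 37 pairs written by hand from textbook knowledge, covering 17 of the 20 semaphorins, and a pair was called expressed where both transcripts reached 1 CPM in every library of a group. This held for 22 pairs in control, 17 in SB216763, and 24 in EC libraries, and for 11 pairs in all 3 groups. The order of the groups belongs to this cutoff, and control did not exceed SB216763 where 1 CPM per kb was asked for. The 6 pairs expressed in control and not in SB216763 libraries were those of Sema3f (with Nrp2, Plxna1, and Plxna3), Sema3g (with Nrp2 and Plxnd1), and Sema4g (with Plxnb2). Sema3g lay near 1 CPM in both groups and did not pass the test, so its pairs turn on the cutoff. Sema4g, which fell, also lay near it, averaging 1.52 CPM in control and 0.756 CPM in SB216763 libraries. Sema5a with Plxnb3 was the pair expressed in SB216763 and not in control libraries, and it too turns on the cutoff, since Plxnb3 was under 2 CPM in every treated library. The pairs of Sema5a with Plxna1 and Plxna3 counted as expressed in all 3 groups. Yet Sema5a averaged only 1.31 CPM in control and 1.88 CPM in EC libraries, against 291 CPM in SB216763 libraries. The 7 pairs expressed in ECs alone were Sema3a with Plxna4, Sema3e with Plxnd1, Sema6a with Plxna4, Sema6b and Sema6d with Plxna4, Sema6b with Plxna2, and Sema6d with Plxna1, and in each the ligand, the plexin, or both were under 1 CPM in the osteoblasts.

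Between the osteoblast groups, both members passed the test in 14 of the 37 pairs, which share genes and are not independent. The remaining 23 pairs held a member that did not pass or, like Sema3d, Sema4a, and Sema5b, was not tested. Since 64.9% of all genes tested passed, the count of 14 is no result about the pairs. In 7 pairs the ligand fell and the receptor rose: Sema3a with Nrp1, Plxna1, and Plxna2, Sema3c with Nrp1 and Plxnd1, Sema3f with Plxna1, and Sema6a with Plxna2. In 3 pairs both fell: Sema3c with Nrp2, Sema3f with Nrp2, and Sema4g with Plxnb2. In 2 pairs both rose, Sema5a with Plxnb3 and Sema5a with Plxna1. In the other 2 the ligand rose and the receptor fell, Sema7a with Plxnc1 and Sema4c with Plxnb2. In each control library Sema7a was below its receptor Plxnc1 per kb, at 1.46 ± 0.0820 against 4.98 ± 0.305 CPM per kb, and in the treated libraries it was far above it, at 51.2 ± 3.61 against 1.33 ± 0.0744. Sema5a was at 15.6 ± 0.343 CPM per kb in treated libraries, where Plxnb3 was at 0.269 ± 0.0208 and Plxna1 at 38.5 ± 0.460. These values are transcripts within a culture and say nothing of protein or of binding.

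**Figure D5:**
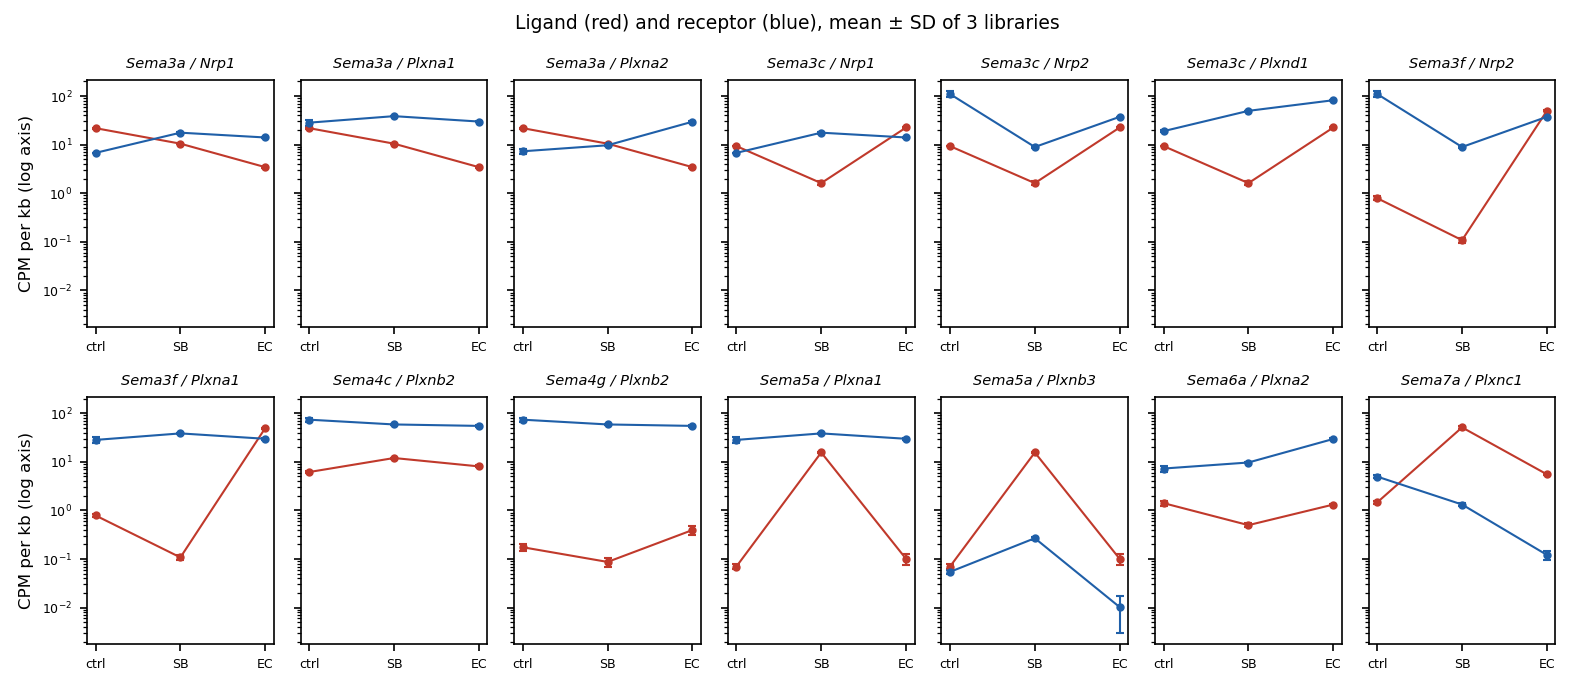
Mean level with SD (y axis, CPM per kb, log scale shared by all panels, n = 3) of the ligand (red) and receptor (blue) in control (ctrl), SB216763 (SB), and EC libraries, for the 14 pairs in which both members passed the test between SB216763 and control. The lines of Sema7a and Plxnc1 cross between control and SB216763 libraries, those of Sema5a and Plxnb3 both peak in SB216763, and those of Sema3f and Nrp2 both dip there.

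ECs and control osteoblasts differed in nearly all of these genes. Of the 27 tested, 15 were higher in ECs and 10 were lower, which is 92.6% against a background of 76.9% (39.0% higher and 37.9% lower), and 15 passed the 4-fold cutoff, which is 55.6% against 23.4% (13.5% higher and 9.87% lower). The libraries did not overlap for 24 of the 27, against 84.0% of all genes tested. The 8 that were at least 4-fold higher in ECs were Plxna4 (log2 fold change 10.39), Sema6b (9.61), Sema6d (8.56), Sema3f (5.99), Sema3e (5.24), Sema3g (2.68), Plxnd1 (2.12), and Plxna2 (2.02). They include the ligand Sema3e with its receptor Plxnd1. Plxna4, Sema6b, and Sema6d reached the level of the expression filter in all 3 libraries for ECs only. Sema3b, Sema4d, and Plxnb3 reached it for the osteoblast groups only, so the filter bears on the calls of these 6 genes. Of the other 21 genes, 12 were higher in ECs and 7 lower (90.5%), and 5 and 4 of them by at least 4-fold. The share over all genes under this restriction was not computed, so the 90.5% is no result about this family. Plxna2 was below 4-fold without control replicate 2 (1.90) or EC replicate 3 (1.99). The 7 that were at least 4-fold lower were Sema3b (-6.10), Plxnc1 (-5.38), Sema4d (-4.26), Plxna3 (-3.06), Plxnb1 (-2.82), Sema3a (-2.67), and Plxnb3 (-2.35). With only 8 counts in ECs, Plxnb3 was at -1.91 without EC replicate 1, below 4-fold, and at -3.08 without EC replicate 3. Sema6a and Plxna1 did not pass, with log2 fold changes of -0.09 (95% interval -0.27 to 0.08) and 0.08 (95% interval -0.09 to 0.25). Of the leukocyte markers, Cd68 averaged 46.6 ± 0.986 CPM in EC and 0.532 ± 0.194 CPM in control libraries and Lyz2 10.4 ± 0.322 and 26.0 ± 1.15 CPM, while Ptprc had 1 to 6 counts and Cd3e 0 counts in each of these libraries, and their part in the EC values was not tested.

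Treated osteoblasts and ECs also differed in nearly all of them. In SB216763 against EC, 13 of the 27 were higher and 13 lower (96.3% against a background of 78.6%, with 38.3% higher and 40.3% lower), and the libraries did not overlap for all 27 tested, against 85.4% of all genes tested. At the 4-fold cutoff, 8 were higher and 9 lower (63.0% against 25.3%, with 10.3% higher and 15.0% lower). Higher in treated cells were Sema5a (log2 fold change 7.30), Sema3b (5.98), Plxnb3 (4.65), Sema4d (4.26), Plxnc1 (3.47), Sema7a (3.21), Plxna3 (3.05), and Sema6c (2.16). Lower were Plxna4 (-10.26), Sema6b (-9.38), Sema6d (-8.96), Sema3f (-8.83), Sema3e (-5.84), Sema3c (-3.80), Sema3g (-2.98), Sema4g (-2.19), and Nrp2 (-2.06). Without the same 6 genes, 10 of the other 21 were higher in treated cells and 10 lower (95.2%), and 5 and 6 of them by at least 4-fold. No share over all genes was computed under this restriction, so the 95.2% is no result about this family. Sema6b was at -10.31 without SB216763 replicate 2, Plxnb3 at 5.38 without EC replicate 3, and Sema4g at -1.97, below 4-fold, without EC replicate 3. Nrp2 stayed past 4-fold with each library left out (-2.07 to -2.03). Over all alternatives it ran from -2.08 to -1.98, so it was not past 4-fold in every one. Plxnb2 did not pass (log2 fold change 0.10, 95% interval -0.03 to 0.23). The comparisons of SB216763 and of EC against control share the control libraries, so their values are given here only side by side. Plxnd1 was at 1.39 and 2.12, Nrp1 at 1.38 and 1.05, Sema7a at 5.12 and 1.92, and Plxnc1 at -1.91 and -5.38, in that order. Sema3c was at -2.53 and 1.27, and Sema3f at -2.84 and 5.99.

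Inside the cell, plexins act through small GTPases, their exchange factors, and cytoskeletal proteins such as the collapsin response mediators, which GSK3 kinases phosphorylate in the Sema3a pathway. Of 40 such effector genes, 38 were tested between SB216763 and control; 8 rose and 18 fell (68.4% against a background of 64.9%), with a median log2 fold change of -0.21 against 0.01 over all genes tested, and 6 fell by at least 4-fold. By direction, 21.1% of the tested effectors rose against 32.9% of all genes, 47.4% fell against 32.0%, and 15.8% fell by at least 4-fold against 5.84%. Farp2, the exchange factor that passes the Sema3a signal from Plxna1 to Rac, was at 198.5, 174, and 215 CPM in the control libraries, 22.1, 24.1, and 24.3 CPM in the SB216763 libraries, and 12.3, 12.6, and 13.3 CPM in the EC libraries. Its groups did not overlap, and it fell by 3.06 on the log2 scale (SE 0.0729, edgeR adjusted p = 3.47e-15). Dpysl2, a collapsin response mediator, was at 109, 83.2, and 86.1 CPM in the control libraries, 19.9, 18.8, and 22.4 CPM in the SB216763 libraries, and 37.0, 33.7, and 34.4 CPM in the EC libraries. It was lowest in the treated libraries and fell by 2.19 (SE 0.0937, edgeR adjusted p = 4.99e-12). The other effectors past the 4-fold cutoff were the GTPase Rnd1 (-2.69), the Ras-family GTPase Rras2 (-2.27), the actin-oxidizing enzyme Mical2 (-2.15), and Dpysl5, whose 3, 6, and 1 counts in treated libraries gave a control to treated ratio of 4.48 (95% counting interval 2.28 to 9.82). Dpysl5 had 0 counts in every EC library and passed the expression filter only through the control libraries. The filter thus bears on its place among the 6. The GSK3 genes themselves did not pass, with log2 fold changes of 0.03 for Gsk3a and -0.16 for Gsk3b (edgeR adjusted p = 0.613 and 0.0182).

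Of 14 co-receptors known to join semaphorin receptors, 8 were tested, 2 rose, and 2 fell with SB216763 (50% against a background of 64.9%). Itga1, the α chain of a β1 integrin of the kind that Sema7a binds, was at 49.6, 41.7, and 48.9 CPM in the control libraries, 6.45, 7.09, and 7.03 CPM in the SB216763 libraries, and 42.7, 44.6, and 42.6 CPM in the EC libraries. The treated libraries lay below all others, with a fall of 2.77 on the log2 scale (SE 0.0746, edgeR adjusted p = 1.52e-14), and the β1 chain Itgb1 fell by 0.28. Erbb2, a partner of B-type plexins, rose by 0.29. Gfra1 went from 1, 0, and 1 counts in control to 19, 20, and 22 counts in treated libraries, a ratio of 40.8 (95% counting interval 10.8 to 345). With 0, 1, and 3 counts in EC libraries, Gfra1 passed the expression filter only through the treated libraries. The filter thus bears on its place among the 2 that rose. In EC against control, 5 of the 8 co-receptors (62.5%) and 31 of the 38 effectors (81.6%) tested passed the threshold, against a background of 76.9%. The co-receptor Robo1 and the effector Dpysl5 had 0 counts in every EC library, so the filter bears on their calls.

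Markers of other cell types moved with the treatment as well. The summed level of 5 pericyte and smooth muscle markers was 3119 to 3269.8 CPM in control, 888 to 899 CPM in SB216763, and 22.7 to 23.9 CPM in EC libraries. Of the 4 tested, Acta2 (-4.34), which made up most of the sum in control, and Cspg4 (-3.40) fell with SB216763, Pdgfrb rose (log2 fold change 1.56, edgeR adjusted p = 5.08e-13), and Myh11 did not pass. The summed level of 5 neuron and glia markers was 46.0 to 47.1, 25.9 to 29.1, and 3.11 to 3.75 CPM in control, SB216763, and EC libraries. The part of these changes, and of the fall in osteoblast markers, in the values of the semaphorins and their receptors was not tested. The 5 epithelial markers summed to less than 1 CPM in every library.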

How the data were processed

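RNA-Seq was performed on control MC3T3-E1 cells, SB216763-treated MC3T3-E1 cells, and mouse pulmonary ECs (n = 3 libraries each). The authors aligned the reads and made gene counts with STAR (version 2.5.3a on GRCm38 in the submitters' processing notes) and deposited them as whole-number counts, without normalization. The annotation and strand setting are not given in the sources used here. The label text on the treatment protocol names SB216763 for 14 days and is the same for every sample, controls and ECs included. Groups were therefore taken from the treatment entries and titles. Each column was matched to its sample by name. Coordinates, gene types, and exon lengths came from GENCODE mouse release 21, and symbols came from a separate list of mouse gene names. The counts were tested with edgeR 4.0.16 in R 4.3.3 (TMM, filterByExpr by group, quasi-likelihood test over all 9 libraries, no block, Benjamini-Hochberg over 15531 genes), and the test was tried on simulated counts. CPM is TMM-normalized, and log2 fold changes used a prior count of 0.125. Depth was 30990107 to 68946333 counts per library.

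The genes studied, the pathway and marker lists, and the ligand and receptor pairs were chosen with earlier results of these data known. Values in every library are given for genes past the 4-fold cutoff in SB216763 against control, or called there with at least 10 CPM in all libraries of a group. Pathway genes are named by the 4-fold cutoff, at most 6 per list; Itgb1, Erbb2, Gsk3a, and Gsk3b were named after their values were seen. Alternatives were limma-voom 3.58.1, DESeq2 1.42.0, other normalizations and filters, fits of 2 groups, a replicate block, other cutoffs, other length corrections, and leaving out each library. Replicate numbers are shared by the groups, but deviations of same-numbered libraries correlated by only -0.0392 to 0.123, so they were not taken as pairs. No column of other samples was found. Intervals named counting intervals cover counting error only. The intervals of log2 fold changes came from the SE of the edgeR fit, which includes the spread between libraries.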

Additional observations from a re-analysis of the deposited data

How the results depend on the processing

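The counts of genes that rose and fell stayed within 1.5 times of the values given under every alternative run, except that 5 rather than 9 rose in SB216763 against control when a change of at least 2-fold was also asked for. Leaving out each library in turn, 9 rose and 9 to 10 fell in SB216763 against control, 14 to 15 were higher and 10 lower in EC against control, and 13 were higher and 13 lower in SB216763 against EC. Every gene called in SB216763 against control kept its direction in all alternatives run for it. Scaling by library size alone moved the median log2 fold change of all genes to 0.22 in SB216763 against control and 0.13 in EC against control, and under it Plxnb2 no longer passed in SB216763 against control (-0.12) and Sema4b passed (0.27, adjusted p = 0.00480). Plxnb2 passed in SB216763 against EC when only these groups were fitted (0.13). The cause of these shifts was not tested.

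Signs turned only for genes that had not passed the test. In SB216763 against control, the log2 fold change of Plxna3 became 0.19 with library-size scaling and 0.00620 with upper-quartile normalization, and that of Sema3b 0.0831 with library-size scaling. Sema4d became -0.00927 with DESeq2, -2.94e-04 with its size factors in edgeR, -0.00340 with the replicate block, and -0.0173 with only these groups, and Sema6b -0.0861 with limma-voom. With each library left out in turn, values ran from -0.10 to 0.0364 for Plxna3, -0.0896 to 0.30 for Plxna4, -0.0214 to 0.14 for Sema4b, -0.0786 to 0.0916 for Sema4d, and -0.71 to 0.71 for Sema6b. In EC against control, Sema6a became 0.0320 with library-size scaling, and Plxna1 ran from -0.0471 to 0.13 with libraries left out, lowest without control replicate 2.

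The replicate block gave 9 higher and 9 lower genes in SB216763 against control, 14 and 10 in EC against control, and 13 and 13 in SB216763 against EC; Sema5a in EC against control was the only call it changed (0.51, adjusted p = 0.01005).

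Expressed pairs in control fell from 22 to 12 where both transcripts had to reach 1 CPM per kb. With that cutoff the control count was no longer above the SB216763 count. All class shares moved with the length used. In the order Sema3a in control, Sema7a in SB216763, Sema3f in EC, Plxnb2 in control, Plxnb2 in SB216763, Plxnd1 in EC, Nrp2 in control, Nrp1 in SB216763, and Nrp2 in EC, they were 64.9%, 23.3%, 35.5%, 47.3%, 32.4%, 29.7%, 95.1%, 61.9%, and 76.3% without length correction and 58.9%, 38.8%, 43.9%, 53.9%, 37.7%, 35.3%, 91.3%, 75.01%, and 63.6% per kb of the longest transcript, an alternative chosen after seeing the data. Depth limits Sema3d, Sema4a, Sema4f, and Sema5b, which were not tested, and Plxna4, Sema6b, and Sema6d in osteoblasts.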

Other observations

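Several of these genes differed from the next family member on the same chromosome (GRCm38 coordinates of GENCODE). Genes outside the family that may lie between them were not considered. Sema3b and Sema3f, both on chromosome 9 and on the minus strand, are separated by 72.3 kb. Sema3f was 7.14-fold lower in SB216763 than in control libraries, where Sema3b had a log2 fold change of -0.12 that did not pass, and in EC against control Sema3f was at 5.99 and Sema3b at -6.10. Among family members, Sema3d, Sema3a, Sema3e, and Sema3c follow each other on chromosome 5, on the plus strand, with gaps of 536 kb, 423 kb, and 3318 kb. Per kb, Sema3a and Sema3c stood at 21.8 ± 0.606 and 9.33 ± 0.171 CPM per kb in control libraries, whereas Sema3e was at 0.0566 ± 0.0199 and Sema3d at 0.0151 ± 0.00626. In EC libraries the same genes were at 3.44 ± 0.104, 22.5 ± 0.866, 2.32 ± 0.0285, and 0.0169 ± 0.00560. Plxnb3 and Plxna3 are 557 kb apart on the X chromosome; Plxnb3 rose 4.90-fold with SB216763, and the log2 fold change of Plxna3 was -0.01.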
